A study of Amaranthus hybridus and Amaranthus hypochondriacus with 18 samples.

Results

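Glucose-6-phosphate isomerase 1, a glucose-6-phosphate/phosphate translocator, trehalose-6-phosphate synthase 1 (TPS1) and inositol oxygenase 1 were followed as 4 assembled transcripts in leaves of the grain amaranth *Amaranthus hypochondriacus*. They were chosen by their transcript identifiers, out of 30946 transcripts in the count table of this species and 61101 in the tables of both species of the study. All 4 passed the filter on low counts, which left 12429 transcripts to test. Leaves of salt, water-deficit and control plants gave 3 libraries each, and every library was made from the leaves of 3 pooled plants. The plants were wild type *A. hypochondriacus* of the cultivar Nutrisol, about 1 month old when the treatments began. Salt plants received 100 ml of saline a day, with 0.15 M NaCl for 7 days, 0.3 M for 4 days and 0.5 M for 3 days. Water-deficit plants had no irrigation for 14 days, and control plants were watered. RNA came from mature leaves that were not senescent.

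The isomerase and the translocator both supply glucose-6-phosphate for starch formation in plastids. The chloroplastic glucose-6-phosphate isomerase converts fructose-6-phosphate from the Calvin cycle into glucose-6-phosphate inside the plastid, and the translocator carries glucose-6-phosphate into plastids in exchange for phosphate. TPS1 makes trehalose-6-phosphate from glucose-6-phosphate and UDP-glucose, and in *Arabidopsis thaliana* this sugar phosphate acts as a signal of sucrose status. Inositol oxygenase opens the ring of myo-inositol to glucuronate, a precursor of UDP-glucuronate and of cell-wall sugars.

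The names came from the sources of the study, which match each transcript to protein databases and to *Arabidopsis* orthologs. The identifiers are AhypoNutrisol_DN4274_c0_g2_i1 for the isomerase, AhypoNutrisol_DN745_c0_g1_i1 for the translocator, AhypoNutrisol_DN3965_c0_g1_i1 for TPS1 and AhypoNutrisol_DN7924_c0_g2_i1 for inositol oxygenase 1. The last transcript is named inositol oxygenase 1 by its *Arabidopsis* ortholog and inositol oxygenase 2-like by its database match. All 4 stand in the study's own list of transcripts that were lower under salt, so their direction under salt is not independent evidence. The paper states a log2FC limit of 2 in either direction, and TPS1 fell short of it here, with a log2FC of -1.42 under salt. The reason for this difference was not tested. Salt and water deficit were also compared with the same control libraries.

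Libraries held 10.9 to 20.5 M (mega) counts, but 92.7% to 97.1% of them fell on the 20 most abundant transcripts, which left 0.320 to 1.50 M for all others. The median tested transcript had between 10 counts (water deficit 2) and 48 counts (salt 2). Water deficit 2 was the smallest library. The number of transcripts called between water deficit and salt was 510 with all libraries and moved with every library left out, to 982 without water deficit 2, 160 without water deficit 1, 106 without water deficit 3, 260 without salt 1, 210 without salt 2 and 282 without salt 3. Levels are given in CPM, the count of a transcript over the library size in M after scaling by trimmed mean of M-values (TMM) factors. Transcript lengths were not used here, so levels were compared between groups and not between transcripts. A transcript was called a differentially expressed gene (DEG) with an FDR below 0.01 and a log2FC beyond 1 in either direction in the quasi-likelihood test of edgeR, fitted to all 9 libraries. Libraries are separate pools of plants. The p-values measure the spread between those pools, after the test moderated the spread of each transcript toward that of all tested transcripts. In whole leaves, fewer cells of a type and less RNA per cell cannot be told apart.

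Under salt stress all 4 transcripts were down-regulated, and none of their salt libraries overlapped with a control library. Their mean levels under salt were 1.80% to 36.4% of control, lowest for the translocator and highest for TPS1. Of all tested transcripts, 6.61% were called lower under salt, 3.53% were called higher and 39% had groups that did not overlap. The median log2FC of the 4 was -3.42, against -0.0027 over all tested transcripts. Under water deficit 3 of the 4 were down-regulated, where 6.95% of all tested transcripts were called lower and 2.75% higher. TPS1 was the exception. The groups did not overlap for these 3 transcripts, and the share over all tested transcripts was 32.1%. The median log2FC of the 4 was -2.31 under water deficit, against 0.0080 over all.

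**Figure D1:**
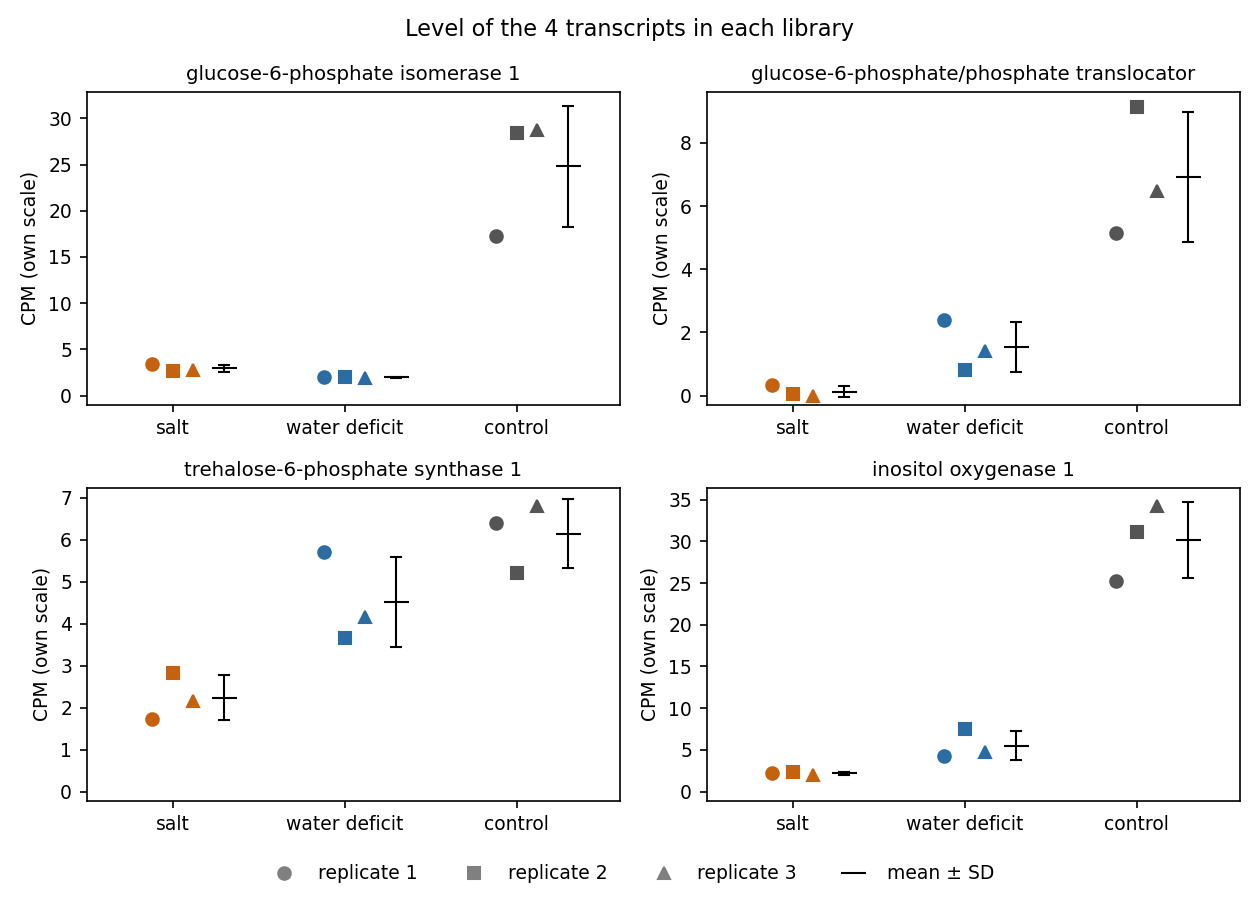
CPM of the 4 transcripts in each of 9 *A. hypochondriacus* leaf libraries, with the salt, water-deficit and control groups from left to right, the mean ± SD beside them and an own vertical scale in each panel. The salt libraries lie below all control libraries in every panel, and TPS1 is the only panel where a water-deficit library lies among the control libraries.

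Glucose-6-phosphate isomerase 1 was low under both stresses. It had 3.38, 2.68 and 2.75 CPM in the 3 salt libraries and 1.98, 2.04 and 1.88 CPM in the 3 water-deficit libraries, against 17.3, 28.5 and 28.7 CPM in the 3 control libraries. These values rest on 74, 99 and 51 counts under salt and on 25, 15 and 43 counts under water deficit, against 205, 398 and 346 counts in control. Control 1 was the lowest control library, and it still lay far above every stress library.

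The isomerase averaged 2.94 ± 0.386 CPM under salt and 24.8 ± 6.55 CPM in control (SD, n = 3 each), a log2FC of -3.08 ± 0.22 (SE, FDR 3.27e-08 by edgeR). It averaged 1.97 ± 0.0795 CPM under water deficit, which gave a log2FC of -3.66 ± 0.24 against control (SE, FDR 2.36e-08 by edgeR). Its level was thus 11.8% of control under salt and 7.93% under water deficit. Of the 4 transcripts it was the only one with a lower mean under water deficit than under salt. This difference had a log2FC of -0.58 ± 0.25 with a 95% interval of -1.10 to -0.06, and it did not pass the test (FDR 0.137 by edgeR), although the libraries of both stresses did not overlap.

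The glucose-6-phosphate/phosphate translocator was the lowest of the 4 relative to control in the salt libraries. It had 0.320, 0.0541 and 0 CPM in the 3 salt libraries and 2.38, 0.815 and 1.40 CPM in the 3 water-deficit libraries, against 5.14, 9.15 and 6.48 CPM in the 3 control libraries. The counts were 7, 2 and 0 under salt and 30, 6 and 32 under water deficit, against 61, 128 and 78 in control. No count in salt 3 allows a level of up to 0.162 CPM there, a limit that covers counting error only. The 3 groups followed each other without overlap.

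The translocator averaged 0.125 ± 0.171 CPM under salt and 6.92 ± 2.04 CPM in control (SD, n = 3 each), which is 1.80% of control. The log2FC was -5.81 ± 0.47 (SE, FDR 1.27e-07 by edgeR), the 11th lowest of all tested transcripts. Its salt level rests on 9 counts in all, and the log2FC lay between -7.35 and -5.09 over the alternative settings. Under water deficit it averaged 1.53 ± 0.792 CPM (SD, n = 3), 22.1% of control, with a log2FC of -2.13 ± 0.34 (SE, FDR 0.000245 by edgeR).

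TPS1 was down-regulated under salt and did not pass the test under water deficit. It had 1.74, 2.81 and 2.16 CPM in the 3 salt libraries and 5.72, 3.67 and 4.16 CPM in the 3 water-deficit libraries, against 6.40, 5.22 and 6.81 CPM in the 3 control libraries. The counts were 38, 104 and 40 under salt and 72, 27 and 95 under water deficit, against 76, 73 and 82 in control. Each salt library lay below each library of the other 2 groups, and water deficit 1 lay above control 2.

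TPS1 averaged 2.24 ± 0.543 CPM under salt and 6.14 ± 0.827 CPM in control (SD, n = 3 each), 36.4% of control. The log2FC under salt was -1.42 ± 0.21 (SE, FDR 0.000111 by edgeR). With library totals as the only scaling this call was lost (log2FC -0.60, FDR 0.264 by edgeR), a setting in which the median of all transcripts was 0.77 and not near 0. Under water deficit TPS1 averaged 4.51 ± 1.07 CPM (SD, n = 3), 73.5% of control. The log2FC was -0.43 ± 0.21 with a 95% interval of -0.88 to 0.02 (FDR 0.180 by edgeR), so the data leave room for a decrease of somewhat less than 1 on the log2 scale and for no change.

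Inositol oxygenase 1 was the transcript with the smallest p-value of the 4 under salt, the 20th smallest of all tested. It had 2.28, 2.35 and 2.00 CPM in the 3 salt libraries and 4.21, 7.47 and 4.77 CPM in the 3 water-deficit libraries, against 25.3, 31.1 and 34.2 CPM in the 3 control libraries. The counts were 50, 87 and 37 under salt and 53, 55 and 109 under water deficit, against 300, 435 and 412 in control. The groups did not overlap in any pair, and the highest stress library, water deficit 2, lay far below the lowest control library.

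It averaged 2.21 ± 0.188 CPM under salt and 30.2 ± 4.56 CPM in control (SD, n = 3 each), 7.33% of control, with a log2FC of -3.76 ± 0.23 (SE, FDR 6.64e-09 by edgeR). Under water deficit it averaged 5.48 ± 1.75 CPM (SD, n = 3), 18.2% of control, with a log2FC of -2.50 ± 0.22 (SE, FDR 5.10e-07 by edgeR).

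The Trinity component of inositol oxygenase 1 holds another transcript without a name, AhypoNutrisol_DN7924_c0_g1_i1, and the components of the other 3 hold none. It had 2, 6 and 2 counts under salt and 1, 3 and 5 counts under water deficit, against 22, 31 and 19 counts in control. The transcript was down-regulated under salt (log2FC -3.81 ± 0.39, FDR 2.07e-06 by edgeR) and under water deficit (log2FC -3.12 ± 0.42, FDR 4.13e-05 by edgeR), as was inositol oxygenase 1. It passed the filter on low counts through its control libraries. Without sequences it cannot be told whether both transcripts belong to separate genes or are pieces of the same one. They may thus not be independent. Reads that fit 2 transcripts were not counted, so transcripts with near-identical stretches may lose counts to that step, and values of close copies are uncertain.

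**Figure D2:**
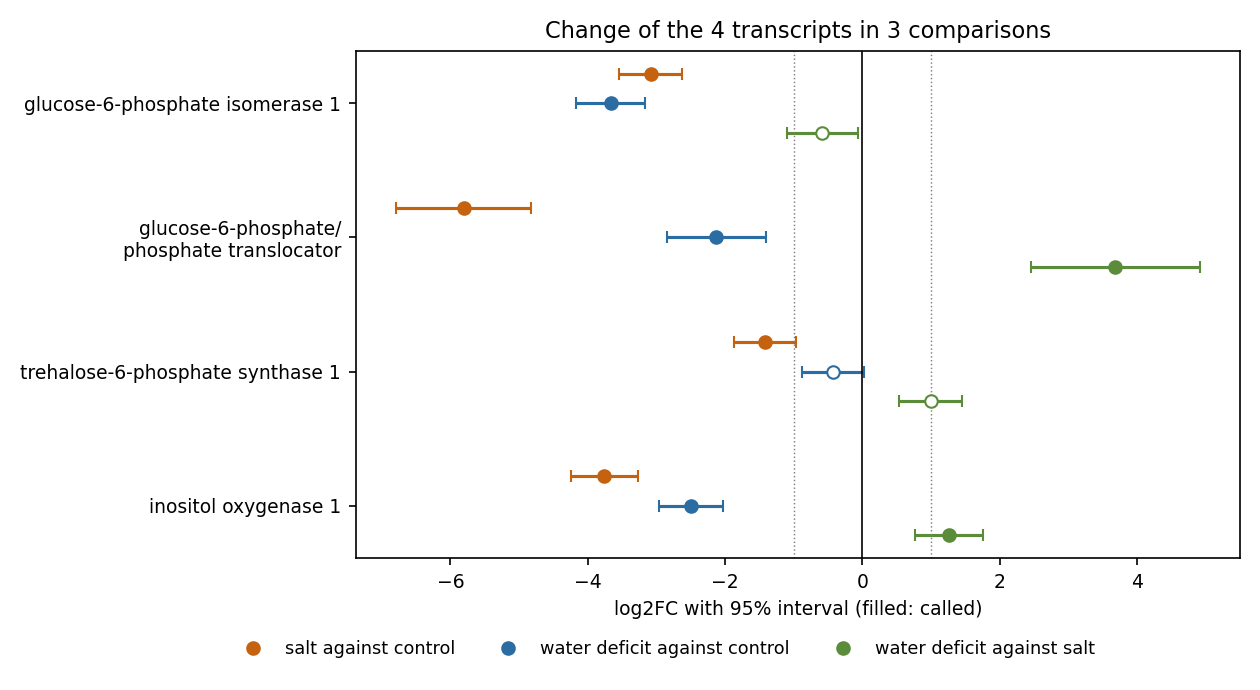
Log2FC of the 4 transcripts for each stress against control and for both stresses against each other (water deficit over salt), with 95% intervals. Filled points passed an FDR of 0.01 and an absolute log2FC of 1 (dotted lines). The translocator has the widest gap between the stresses, with a log2FC of 3.68 for water deficit against salt.

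Water deficit and salt were then compared directly. Among the 4 transcripts, 2 were higher under water deficit than under salt by the test, and 1.75% of all tested transcripts were called higher and 2.36% lower. The libraries of both stresses did not overlap for any of the 4, and the share over all tested transcripts was 28.5%. The translocator had a log2FC of 3.68 ± 0.58 (SE, FDR 0.000944 by edgeR), 12.8-fold higher under water deficit than under salt. This log2FC was 5.20 without salt 1, the salt library with most of its counts, and 3.14 without salt 2. On the 6 libraries of this comparison alone the translocator did not pass the filter on low counts. Its test used the fit to all 9 libraries, including control, where its counts were highest. Inositol oxygenase 1 had a log2FC of 1.26 ± 0.23 (SE, FDR 0.00248 by edgeR), 2.40-fold higher. TPS1 had a log2FC of 0.99 ± 0.22 (SE, FDR 0.00746 by edgeR), which passed the FDR limit and fell just short of the fold limit. It was called in 6 of 17 alternative settings, among them DESeq2 (log2FC 1.02, FDR 0.00666) and RLE size factors in edgeR (log2FC 1.01, FDR 0.00672).

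These calls between the stresses were less stable than those against control. Without salt 2 neither call remained, with an FDR of 0.0119 for the translocator and 0.0144 for inositol oxygenase 1. The log2FC of inositol oxygenase 1 was 1.31 without salt 2. Its call was also lost without salt 1 (log2FC 1.27, FDR 0.0141), salt 3 (log2FC 1.19, FDR 0.0167) or water deficit 3 (log2FC 1.36, FDR 0.0120), with a difference about as large as in all libraries, and with library totals as the only scaling (log2FC 0.80, FDR 0.318), all by edgeR. Without water deficit 2, the smallest library, the translocator had a log2FC of 3.87, inositol oxygenase 1 of 1.02 and TPS1 of 1.08 between the stresses, and all 3 were called. Against control, leaving out the same library gave a water-deficit log2FC of -3.67 for the isomerase, -1.94 for the translocator, -0.32 for TPS1 and -2.73 for inositol oxygenase 1, with the same 3 called.

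The tissue was checked with 4 light-harvesting transcripts of leaf mesophyll, CP26, LHCB3, CP29.2 and the LHCI type III protein CAB-4. All 4 were detected in every library, and all 4 were down-regulated under both stresses. Their summed level ranged over 26.1 to 37.4 CPM in the salt libraries and 12.5 to 16.0 CPM in the water-deficit libraries, against 115 to 172 CPM in the control libraries. The sum was 20.9% of control under salt and 9.39% under water deficit. The 4 sugar transcripts also had lower means than control under both stresses, with TPS1 not called under water deficit. Only the isomerase shared the order of the sum, with a lower mean under water deficit than under salt. The part of the light-harvesting decrease in the changes of the sugar transcripts was not tested.

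Set against the summed light-harvesting level of the same library, the 4 transcripts differed in how they moved. The isomerase stood at 8.18% to 10.6% of the sum in the salt libraries and 11.7% to 16.3% in the water-deficit libraries, against 15.0% to 16.7% in the control libraries. Thus the water-deficit libraries overlapped with control on this scale, and the salt libraries lay below both. The translocator stood at 0% to 0.856% of the sum under salt and 6.52% to 16.2% under water deficit, against 3.76% to 5.31% in control. On this scale the translocator was lower than control under salt and higher under water deficit. Inositol oxygenase 1 stood at 6.11% to 7.66% under salt and 28.6% to 59.8% under water deficit, against 18.0% to 21.9% in control. TPS1 stood at 4.65% to 8.60% under salt and 26.0% to 38.9% under water deficit, against 3.03% to 5.54% in control. These percentages are descriptions without a test. The sum itself was 9.39% of control under water deficit, so a transcript that fell less than the sum stands higher on this scale. In CPM the means of all 4 lay below control under both stresses.

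**Figure D3:**
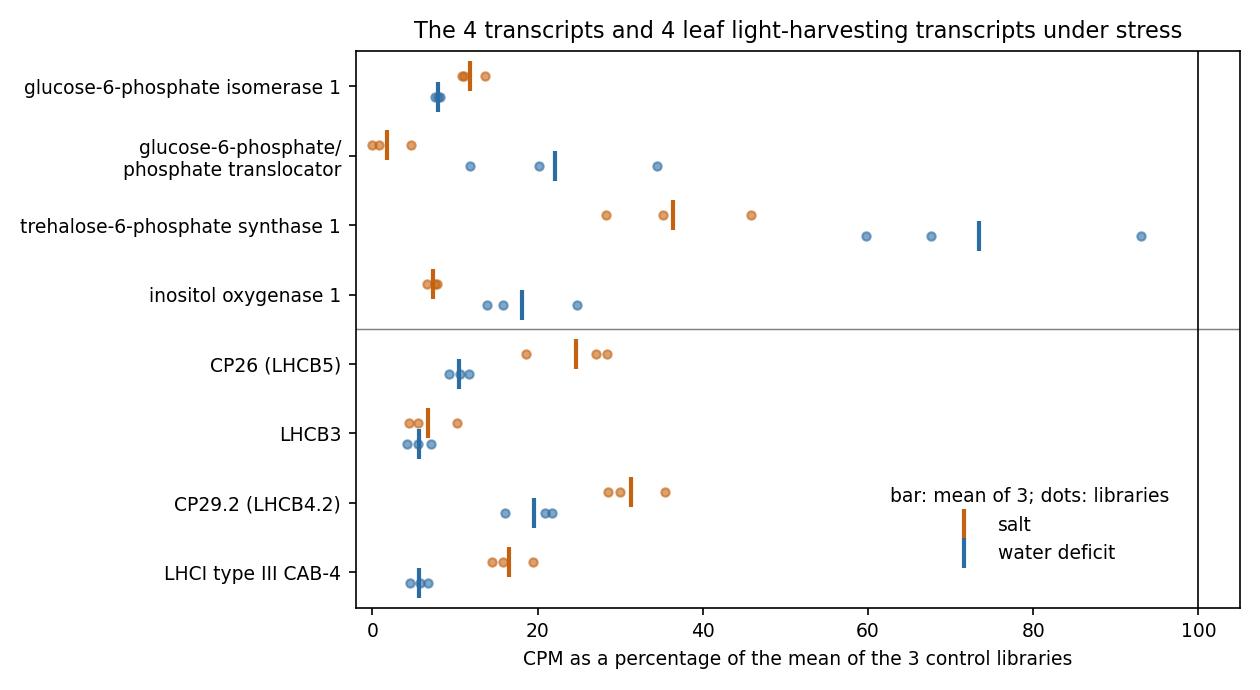
CPM of the 4 sugar transcripts (above the line) and 4 light-harvesting transcripts (below it) as a percentage of the mean of the 3 control libraries, with dots for single salt and water-deficit libraries and bars for their means. Both sets are below control under both stresses, with TPS1 nearest to control at 36.4% under salt and 73.5% under water deficit.

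Over the 9 libraries the log2 CPM of inositol oxygenase 1 and the translocator had a Pearson's r of 0.902, the highest of the 6 pairs. The isomerase and TPS1 had the lowest, with r = 0.572. The isomerase had an r of 0.881 with inositol oxygenase 1 and 0.714 with the translocator, and TPS1 had 0.876 with the translocator and 0.822 with inositol oxygenase 1. The points share 3 groups and their library scaling, so these values describe the group pattern.

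Among 927 named tested transcripts, those most similar to each of the 4 were found by Pearson's r over the 9 libraries. For the isomerase they were a chloroplastic-like ferric reduction oxidase (r = 0.996), a tropinone reductase homolog (r = 0.994) and a magnesium-protoporphyrin IX monomethyl ester transcript of chlorophyll synthesis (r = 0.993). For the translocator they were a YLS2-like protein (r = 0.989), mannose-6-phosphate isomerase 2 (r = 0.984) and phosphoenolpyruvate carboxylase kinase 2-like (r = 0.980). The same kinase came first for TPS1 (r = 0.941), before an ABC transporter of the G family, member 22 (r = 0.938), and B-box zinc finger protein 32 (r = 0.936). For inositol oxygenase 1 they were TIFY 10a (r = 0.996), an LRR receptor-like kinase (r = 0.994) and a CYP72A219-like cytochrome P450 (r = 0.985). TPS1 had the least similar named neighbours of the 4. Over all 12429 tested transcripts, those of TPS1 ranked 11, 13 and 18 and those of the isomerase 2, 4 and 6. The ranks were 1, 2 and 3 for the translocator and 1, 2 and 5 for inositol oxygenase 1. Transcripts without a name were thus more similar in part, and these r values also describe the group pattern.

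The pathway around the 4 was described with 38 further named transcripts in 5 lists, of which 36 were tested. Of the 38, 30 come from the study's lists of transcripts higher or lower under salt, so their salt direction is not independent evidence either. The other 8 come from its clusters of DEG orthologs. The salt or control libraries behind that choice enter all 3 comparisons. The shares called in the lists are thus not independent of the choice, and the shares over all transcripts are no fair baseline for them. Under salt 15 of the 36 were called lower and 15 higher, with a median log2FC of -0.89. Calls in either direction made up 10.1% of all tested transcripts. Under water deficit 13 were called lower and 3 higher, with a median of 0.32, against 9.7% called in either direction over all. Between water deficit and salt 1 was called lower and 3 higher, with a median of -0.18, against 4.1% over all.

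**Figure D4:**
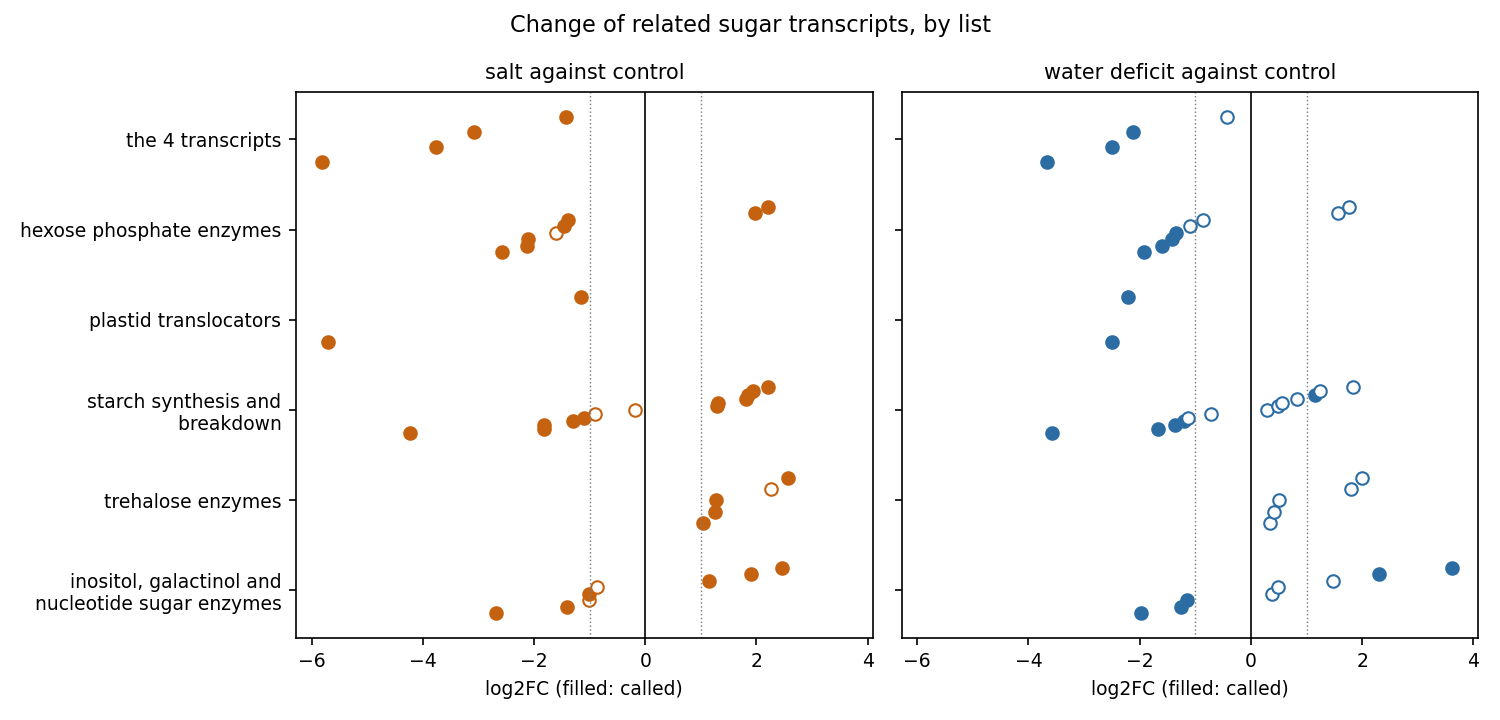
Log2FC of the 4 transcripts and of 36 related transcripts in 5 lists, for salt against control (left) and water deficit against control (right), with filled points for those called. The listed trehalose enzymes lie above 0 in both panels, with 4 of 5 called under salt and 0 of 5 under water deficit. TPS1 is the rightmost point of the top row, at -1.42 and -0.43.

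Among enzymes of hexose phosphates, next to the isomerase, more transcripts were called lower than higher under both stresses. Under salt 5 of 8 were down-regulated and 2 up-regulated (median log2FC -1.53), and under water deficit 4 were down-regulated and 0 up-regulated (median -1.22). Among the 8 under water deficit, 2 with a positive log2FC had an unadjusted p below 0.05, and 0 were called higher by DESeq2, against 1 by the exact test of edgeR on 9 libraries. The transcripts with the largest changes in either direction bear the same name, glucose-6-phosphate 1-epimerase, which interconverts the anomers of glucose-6-phosphate. AhypoNutrisol_DN8236_c0_g4_i1 had 4.97 to 5.39 CPM under salt and 6.12 to 10.6 CPM under water deficit, against 26.4 to 33.7 CPM in control. It was down-regulated under both stresses, with a log2FC of -2.57 (FDR 1.77e-07) under salt and -1.91 (FDR 5.13e-06) under water deficit, by edgeR. AhypoNutrisol_DN8236_c1_g1_i1 had 1.14 to 1.35 CPM under salt and 0.832 to 1.03 CPM under water deficit, against 0.0715 to 0.505 CPM in control. It was up-regulated under salt (log2FC 2.21, FDR 0.00102 by edgeR), and under water deficit its log2FC was 1.77 (FDR 0.0138 by edgeR), which did not pass. Its control level rests on 10 counts in all. Both identifiers share the Trinity number DN8236. Without sequences it cannot be told whether they belong to separate genes or are pieces of the same one.

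Translocators of the plastid envelope were lower, as was the member of the 4. A further transcript with the name of the glucose-6-phosphate/phosphate translocator, AhypoNutrisol_DN24256_c0_g1_i1, had 0, 1 and 1 counts under salt and 5, 0 and 11 counts under water deficit, against 17, 23 and 25 counts in control. It was down-regulated under salt (log2FC -5.71 ± 0.60, FDR 2.64e-06 by edgeR) and under water deficit (log2FC -2.21 ± 0.44, FDR 0.00155 by edgeR), close to the changes of the first translocator transcript. Without sequences it cannot be told whether both transcripts belong to separate genes or are pieces of the same one, so they may not be independent. AhypoNutrisol_DN24256_c0_g1_i1 had a log2FC of 3.50 between water deficit and salt (FDR 0.0109 by edgeR), which did not pass. This difference was called in 4 of 15 alternative settings. It rests on few counts under both stresses. The test used the fit to all 9 libraries, including control, where the counts were highest.

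The triose phosphate/phosphate translocator, which exports photosynthate from the chloroplast, took another order. It had 53.1 to 58.0 CPM under salt and 18.4 to 28.0 CPM under water deficit, against 95.5 to 148 CPM in control. Its log2FC was -1.15 under salt (FDR 0.00186) and -2.50 under water deficit (FDR 1.60e-06), and it was the 1 list transcript called lower under water deficit than under salt (log2FC -1.35, FDR 0.00191), all by edgeR. The phosphoenolpyruvate/phosphate translocator was not tested, with 0, 0 and 0 counts under salt and 1, 2 and 0 under water deficit, against 4, 16 and 12 in control.

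Starch enzymes moved both ways under salt, with 5 of 13 down-regulated and 6 up-regulated. Under water deficit 4 were down-regulated and 1 up-regulated. Granule-bound starch synthase, which makes amylose, had 3.98 to 6.67 CPM under salt and 4.08 to 10.9 CPM under water deficit, against 83.2 to 102 CPM in control. Its log2FC of -4.23 under salt (FDR 5.63e-08) and of -3.58 under water deficit (FDR 3.53e-07), by edgeR, was the lowest of its list in both comparisons.

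The starch transcripts that rose under salt were starch synthase 4, 3 pullulanase transcripts, isoamylase 1 and the inactive beta-amylase 9. DESeq2 called 4 of these 6 higher. The call of isoamylase 1 remained in 7 of 16 alternative settings, and the pullulanase calls remained in 11 of 16, 12 of 17 and 13 of 17. In the same order, the pullulanase transcripts had 7, 18 and 12 counts over the control libraries. Without sequences it cannot be told whether they belong to separate genes or are pieces of the same one, so they may not be independent. Pullulanase and isoamylase cut the branches of starch. The pullulanase AhypoNutrisol_DN4966_c0_g2_i1 rose most, with 0.777 to 0.920 CPM under salt, against 0.0842 to 0.286 CPM in control (log2FC 2.21, FDR 0.00283 by edgeR). It passed the filter on low counts through its salt libraries, where its counts were highest. The inactive beta-amylase 9 was called higher under water deficit as well (log2FC 1.15, FDR 0.00146 by edgeR). Beta-amylase 1, a maltose-forming enzyme of starch breakdown, was lower under salt (log2FC -1.83, FDR 0.00178) and higher under water deficit than under salt (log2FC 2.11, FDR 0.00191), by edgeR. It had 44.0, 8.43 and 25.9 CPM in the 3 water-deficit libraries, against 6.12, 5.22 and 6.97 CPM in the 3 salt libraries, so the value in water deficit 2 lay close to those of salt.

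The other trehalose transcripts of the list were mostly called in the direction opposite to TPS1 under salt. They were drawn from the study's DEG lists and ortholog clusters, and TPS1 stands in its list of lower transcripts. This contrast is therefore not independent evidence and does not cover all trehalose transcripts. Of 5 tested, 4 were up-regulated and 0 down-regulated under salt (median log2FC 1.27), and the fifth had a positive log2FC too. The fifth is named probable trehalose-phosphate phosphatase C, as is a called transcript below. Without sequences it cannot be told whether transcripts of the same name belong to separate genes or are pieces of the same one. They may thus not be independent. DESeq2 called 2 of the 5. The list held 3 transcripts named probable trehalose-phosphate synthase. AhypoNutrisol_DN23175_c0_g2_i1 had 4.84, 4.55 and 6.10 CPM under salt, against 3.11, 1.64 and 1.66 CPM in control (log2FC 1.27 ± 0.24, FDR 0.000834 by edgeR). AhypoNutrisol_DN6897_c0_g1_i1 had 8.64, 9.58 and 11.5 CPM under salt, against 5.05, 4.86 and 4.40 CPM in control (log2FC 1.05 ± 0.18, FDR 0.000463 by edgeR). In both the salt libraries lay above all control libraries.

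Probable trehalose-phosphate synthase 9, AhypoNutrisol_DN8911_c0_g1_i1, had 1.83, 1.60 and 1.30 CPM under salt, against 0.842, 0.429 and 0.748 CPM in control (log2FC 1.25 ± 0.31, FDR 0.00822 by edgeR). This call remained in 8 of 17 alternative settings. In *Arabidopsis* the synthase named TPS9 belongs to a class with little or no synthase activity, unlike TPS1. The largest rise of the list was that of a probable trehalose-phosphate phosphatase C, which removes the phosphate of trehalose-6-phosphate, AhypoNutrisol_DN15884_c0_g1_i1. It had 12, 37 and 15 counts under salt, against 1, 4 and 0 counts in control (log2FC 2.56 ± 0.63, FDR 0.00718 by edgeR). That call remained in 11 of 16 alternative settings, and the log2FC lay between 2.03 and 4.08 over them. The control level rests on 5 counts in all. This transcript passed the filter on low counts through its salt libraries, where its counts were highest, so the size of its rise is uncertain. Under water deficit 0 of the 5 trehalose transcripts were called by edgeR and 0 by DESeq2, and 2 had an unadjusted p below 0.05, with a median log2FC of 0.51.

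Around inositol oxygenase, 8 of 9 transcripts for galactinol, raffinose and nucleotide sugars were tested. Under salt 3 were down-regulated and 3 up-regulated, and under water deficit 3 were down-regulated and 2 up-regulated. Galactinol synthase 1-like, which joins UDP-galactose to myo-inositol, had 0.785 to 1.08 CPM under salt and 0.794 to 4.08 CPM under water deficit, against 4.97 to 7.51 CPM in control. It was down-regulated under salt (log2FC -2.69, FDR 4.65e-05 by edgeR) and under water deficit (log2FC -1.98, FDR 0.00137 by edgeR). UDP-glucuronate 4-epimerase 1, which turns UDP-glucuronate into UDP-galacturonate for pectin, was up-regulated under salt (log2FC 2.46, FDR 4.47e-06) and under water deficit (log2FC 2.31, FDR 2.19e-05), by edgeR. It had 2.49 to 3.29 CPM under salt and 2.46 to 2.85 CPM under water deficit, against 0.337 to 0.665 CPM in control.

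Galactinol-sucrose galactosyltransferase 2, a raffinose-forming enzyme, was called higher under water deficit against control (log2FC 3.62, FDR 0.000890) and against salt (log2FC 4.62, FDR 0.000602), by edgeR. It had 32.0, 0.951 and 32.6 CPM in the 3 water-deficit libraries and 0.777, 0.731 and 1.30 CPM in the 3 salt libraries, against 1.52, 1.79 and 2.16 CPM in the 3 control libraries. Water deficit 2 thus stood within the range of the salt libraries. Galactinol synthase 1 had 152, 0 and 173 counts under water deficit and 3, 7 and 7 counts under salt, against 0, 4 and 1 counts in control, and did not pass the filter on low counts. For the 4 sugar transcripts water deficit 2 was the highest water-deficit library for the isomerase and inositol oxygenase 1 and the lowest for the translocator and TPS1.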

How the data were processed

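Leaf RNA of *A. hypochondriacus* (9 libraries, single-end reads) was analysed, and the *A. hybridus* table served only for its number of transcripts. The authors trimmed reads with Trimmomatic, assembled the transcripts with Trinity, reduced redundancy with CD-HIT, mapped the reads with Bowtie2 2.3.0 and counted reads with a single alignment by a script of their own. They deposited raw counts per transcript without normalization. Groups came from the treatment labels, and all columns of the species were used.

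Counts were fitted in edgeR 4.0.16 (R 4.3.3) with glmQLFit and glmQLFTest, TMM factors and filterByExpr, with all 3 groups in 1 model (6 residual degrees of freedom). P-values were adjusted by Benjamini-Hochberg over all 12429 tested transcripts. Each standard error was computed as the size of the log2FC over the root of its F statistic. The log2 CPM for correlations used a prior count of 2. Figures were drawn with matplotlib 3.10.9.

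The 4 transcripts, the 5 lists and the leaf markers were chosen with earlier results of these data known. The lists may not hold every transcript of an enzyme. Named transcripts are the 4, those of the same Trinity component and, from the 5 lists only, those annotated to the same enzyme or carrier. Also named were the called transcript with the largest change in each direction per list and comparison, and the 3 most similar named transcripts of each of the 4. Starch transcripts beyond this rule, galactinol synthase 1 and the phosphoenolpyruvate/phosphate translocator were named after their values were seen, and the level relative to the light-harvesting sum was chosen after seeing the data. The alternatives tried were a log2FC limit of 2 (that of the study), a looser FDR limit (0.05), DESeq2 1.42.0, edgeR's exact test on 9 or 6 libraries, RLE size factors, library totals, no filter, a filter of CPM over 1 in 3 libraries, the 20 most abundant transcripts left out, a replicate block and each library left out.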

Additional observations from a re-analysis of the deposited data

How the results depend on the processing

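The direction of all 4 transcripts was kept under every alternative run in all 3 comparisons. Salt against control called 4 of the 4 in all settings but 2, where TPS1 was lost and 3 remained (library totals, absolute log2FC above 2), and water deficit against control called 3 in every setting. Between water deficit and salt the count was 2, against 1 with library totals, 1 with an absolute log2FC above 2, 3 (TPS1 added) with DESeq2, RLE size factors, CPM above 1 in 3 libraries or the 20 most abundant left out, and 0 to 3 with a library left out. It was 0 without salt 2, 3 without water deficit 2 and 1 without salt 1, salt 3 or water deficit 3. The translocator did not pass the filter of the exact test on the 6 libraries of that comparison. Of the 36 list transcripts, 30 were called under salt, against 10 with an absolute log2FC above 2 and 19 (without control 3) to 26 with a library left out. Under water deficit 16 were called, against 7 with library totals, 5 with an absolute log2FC above 2 and 10 (without control 2) to 21 with a library left out. Between the stresses 4 were called, against 8 with an FDR limit of 0.05, 2 with an absolute log2FC above 2 and 1 to 7 with a library left out, namely 1 without water deficit 1 or 3, 2 without salt 2 and 7 without water deficit 2. Library totals moved the median of all transcripts to 0.77 (salt), 0.38 (water deficit) and -0.38 (water deficit against salt); the cause was not tested.

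Same-numbered libraries of different groups showed little shared deviation (r of -0.087 to 0.059 over 9 pairs, 0 above 0.1). Of the 9 libraries, 3 were most like their own number. The paper states a randomized complete block design, and the labels do not say whether the numbers mark its blocks. With 3 libraries per group, weak correlations cannot decide this. With the replicate number as a block, 4, 3 and 2 of the 4 transcripts were called in the 3 comparisons, as without the block, and 1173, 1114 and 416 of all transcripts, against 1261, 1206 and 510. Depth limits the translocator most, with 9 counts over the 3 salt libraries.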
